A study of Mus musculus with 12 samples.

Results

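A set of 10 genes of iron and heme handling was followed in cultured mouse peritoneal macrophages (PMs), read on 12 Affymetrix mouse expression arrays. The genes were *Cd163*, *Hp*, *Hmox1*, *Blvra*, *Blvrb*, *Tfrc*, *Slc11a2*, *Slc11a1*, *Fth1* and *Slc40a1*. They were listed by name, and for each the probe set of highest mean signal was taken, among those annotated to 1 gene only. All 10 of 10 were measured, out of 18193 genes on the arrays. The choice of genes uses no measured value of these arrays, although the list was drawn up with earlier results of the same data known. The choice of probe set uses the mean signal over the 12 arrays.

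The arrays form 6 groups of 2. PMs received lipofectamine (a transfection reagent), a scramble oligonucleotide, or antagomir-21, an antisense oligonucleotide against miR-21. Each of these was combined with exosomes of sensory neurons, which overexpressed miR-21 or, as the control, the reporter GFP. Lipofectamine arrays have no oligonucleotide in their label, and were read as PMs given the reagent alone. The methods name C57BL/6 mice of both sexes, a peritoneal lavage with adhesion to the dish as the purification step, and 3 independent collections per condition. The labels give 2 arrays for each group, which are analyzed here. How these 2 relate to the 3 collections is not stated. Which animals or cultures gave each array is not stated, so p values measure the spread between arrays only.

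Macrophages clear senescent red cells and free hemoglobin, and they recycle most of the iron that the body uses each day. Haptoglobin binds free hemoglobin, and CD163 takes up the complex. Heme oxygenase then opens the heme ring to biliverdin, carbon monoxide and iron. The iron is held in ferritin or leaves the cell through ferroportin, whereas the transferrin receptor brings new iron in.

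Antagomir-21 is directed at mature miR-21, and its sequence is shown because the antagomir-21 comparisons turn on it. In the RefSeq annotation of GRCm38.p6 it lies at chr11:86584120-86584141 on the minus strand. Capitals mark the seed, bases 2 to 8, which pairs with target messages.
mmu-miR-21a-5p: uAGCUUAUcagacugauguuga
The arrays do not read this mature miRNA, so neither its delivery by exosomes nor its block by the antagomir could be checked in these PMs.

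Of 9 macrophage markers, some were far above the median gene signal of 7.91 and some near it. Over 12 arrays, *Csf1r*, which encodes the growth factor receptor of this lineage, averaged a log2 signal of 16.43, *Adgre1*, an adhesion receptor used to identify macrophages, 12.87, *Itgam* 8.47 and *Icam2* 8.43, the lowest of the 9. Among 5 B cell markers measured, *Ms4a1* averaged 12.41 and the other 4 were between 5.96 and 9.89. The part of other cells in the results below was not tested. Arrays of the same group were no closer to each other (mean r of 0.591 over 6 pairs) than arrays of different groups (0.602 over 60 pairs). The SD of the log2 signal over all probe sets of an array ran from 2.04 to 2.48. No gene passed an adjusted p of 0.05 in any comparison below, by limma with Benjamini-Hochberg adjustment over 18193 genes, so comparisons are given by their size, SE and unadjusted p. Since the RNA is from bulk cultures, fewer cells of a type and less RNA per cell cannot be told apart.

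The 10 genes were read at all levels, from near the middle of the array to its top. The signal of *Fth1* was 17.19 ± 0.58 on the log2 scale (SD, n = 12 arrays), above all but a few of the genes measured. *Blvrb*, at 7.94 ± 1.52 (SD, n = 12), stood near the median gene signal of 7.91. The spread between the arrays of a group was large against the differences between groups. The gap between the 2 arrays of a group reached 5.56 log2 units, for *Slc11a2*. Only for *Hp* and *Blvrb*, among the 10, did the highest and lowest group means lie farther apart than the widest gap within a group. Over the 10 genes and 15 pairs of groups, the arrays did not overlap in 45 of 150 cases (30.0%), against 32% over all genes.

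**Figure D1:**
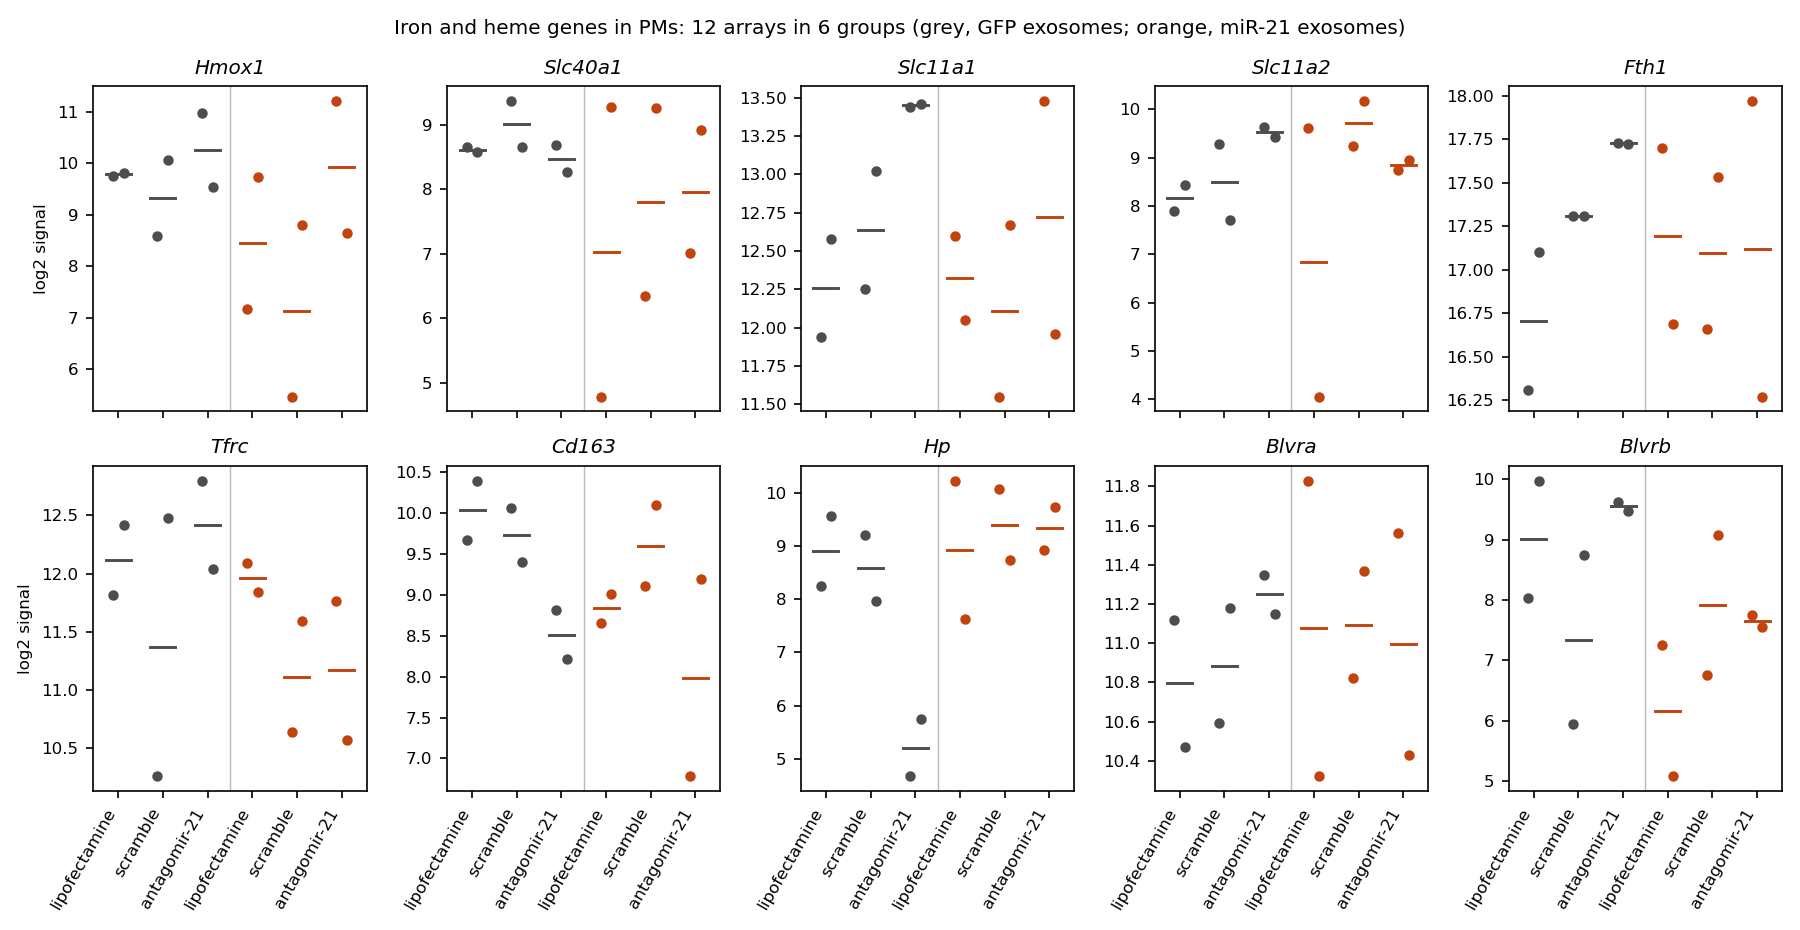
Log2 signal of the 10 iron and heme genes (y axis, own scale per gene) on 12 arrays. Points are arrays, 2 per group, and short lines are group means, with GFP exosomes in grey and miR-21 exosomes in orange. Both *Hp* arrays of antagomir-21 with GFP exosomes, at 4.67 and 5.75, sit below the other 10 arrays.

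Haptoglobin and its receptor come first in the path. *Hp* encodes haptoglobin, a plasma protein made mainly by the liver and also held in neutrophil granules. With GFP exosomes, *Hp* log2 signals were 8.24 and 9.57 after lipofectamine, 9.21 and 7.96 after scramble, and 4.67 and 5.75 after antagomir-21. With miR-21 exosomes, they were 10.23 and 7.62 after lipofectamine, 10.07 and 8.73 after scramble, and 8.93 and 9.74 after antagomir-21. The antagomir-21–transfected PMs that received GFP exosomes were thus the lowest group, with no overlap with any other array, and the other 5 groups overlapped. Of all genes, 2.33% had both arrays of that group below the other 10.

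Compared with scramble, the mean *Hp* signal after antagomir-21 was lower with GFP exosomes, with a log2 fold change of −3.38 (SE 1.12, unadjusted p = 0.0127, adjusted p = 0.721). It was the 1 of 10 members at an unadjusted p under 0.05 there, against 5.38% of all genes. Leaving out scramble replicate 1 gave −2.76 (unadjusted p = 0.0792, adjusted p = 1), and leaving out antagomir-21 replicate 1 gave −2.84 (unadjusted p = 0.0778, adjusted p = 0.885). With miR-21 exosomes the same comparison had none of the 10 members at that threshold, against 5.3% of all genes, and *Hp* differed by −0.07 (SE 1.12). The difference between both comparisons, the interaction, was 3.31 for *Hp* (SE 1.59, unadjusted p = 0.0627, adjusted p = 0.95), and none of the 10 members passed an unadjusted p of 0.05, against 5.36% of all genes.

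*Hp* was also higher with miR-21 than with GFP exosomes after antagomir-21, by 4.12 (SE 1.12, unadjusted p = 0.00408, adjusted p = 0.516), as the 1 of 10 members at the threshold against 5.68% of all genes. It was higher by 4.20 in scramble-transfected PMs with miR-21 exosomes than in antagomir-21–transfected PMs with GFP exosomes (SE 1.12, unadjusted p = 0.00367, adjusted p = 0.337), again as 1 of 10 members, against 7.17% of all genes. These 3 values share the same 2 low arrays and are not separate evidence. The 2 arrays also had the widest spread over all probe sets, with SDs of 2.47 and 2.48. After quantile normalization, the antagomir-21 difference with GFP exosomes was −2.71 (limma, unadjusted p = 0.0397, adjusted p = 0.999). The exosome difference after antagomir-21 was then 3.46 (limma, unadjusted p = 0.0131, adjusted p = 0.818). Over all transfections, the exosome difference was 1.65 (SE 0.65, unadjusted p = 0.028, adjusted p = 0.866), as 1 of 10 members against 5.45% of all genes. That count ran from 0 to 3 without single arrays, and moved in 8 of 12 such runs. The *Hp* difference was 1.30 after quantile normalization (unadjusted p = 0.0779, adjusted p = 0.991) and as low as 1.22 without lipofectamine replicate 1 with miR-21 exosomes. Within transfections it was 0.02 after lipofectamine, 0.82 after scramble and 4.12 after antagomir-21. Among the 6 groups as a whole, *Hp* had the largest moderated F of the 10, 4.02 (unadjusted p = 0.0281, adjusted p = 0.762), as the 1 of 10 members at the threshold against 5.96% of all genes. Without either array of antagomir-21 with GFP exosomes the F was 1.55 (replicate 1) or 2.63 (replicate 2), and after quantile normalization 2.64.

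Since neutrophils carry haptoglobin, their markers were set beside it. Of 9 neutrophil markers 8 were measured and none was at 0 on any array. Their mean log2 signal ran from 6.17 to 8.02 with GFP exosomes (median 7.16, n = 6 arrays) and from 7.50 to 8.43 with miR-21 exosomes (median 8.21, n = 6), so the ranges overlapped. In antagomir-21–transfected PMs with GFP exosomes it was 6.17 and 7.47, and the log2 of their summed signal was 11.37 and 11.78, where all 12 arrays ran from 11.23 to 12.36. In these 2 arrays the markers were split. Against its mean over 12 arrays, *Elane* (2.52 and 3.50, mean 4.98) was lower in both. *Camp* (8.73 and 4.54, mean 8.74) was at its mean in replicate 1 and lower in replicate 2. *Mmp8* was higher in both (10.57 and 10.68, mean 10.17), and the other markers measured lay on either side of theirs. *Ltf*, a neutrophil granule gene that encodes the iron-binding lactoferrin, was low in the same 2 arrays, at 3.63 and 3.90. It comes from the iron lists below, not from the 8 markers, and averaged 6.62, below the median gene signal of 7.91. It was picked after the values were seen. *Lcn2*, of the same list, lay on either side of its mean of 4.76, at 5.50 and 3.64. The part of neutrophils in the *Hp* difference was not tested.

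**Figure D2:**
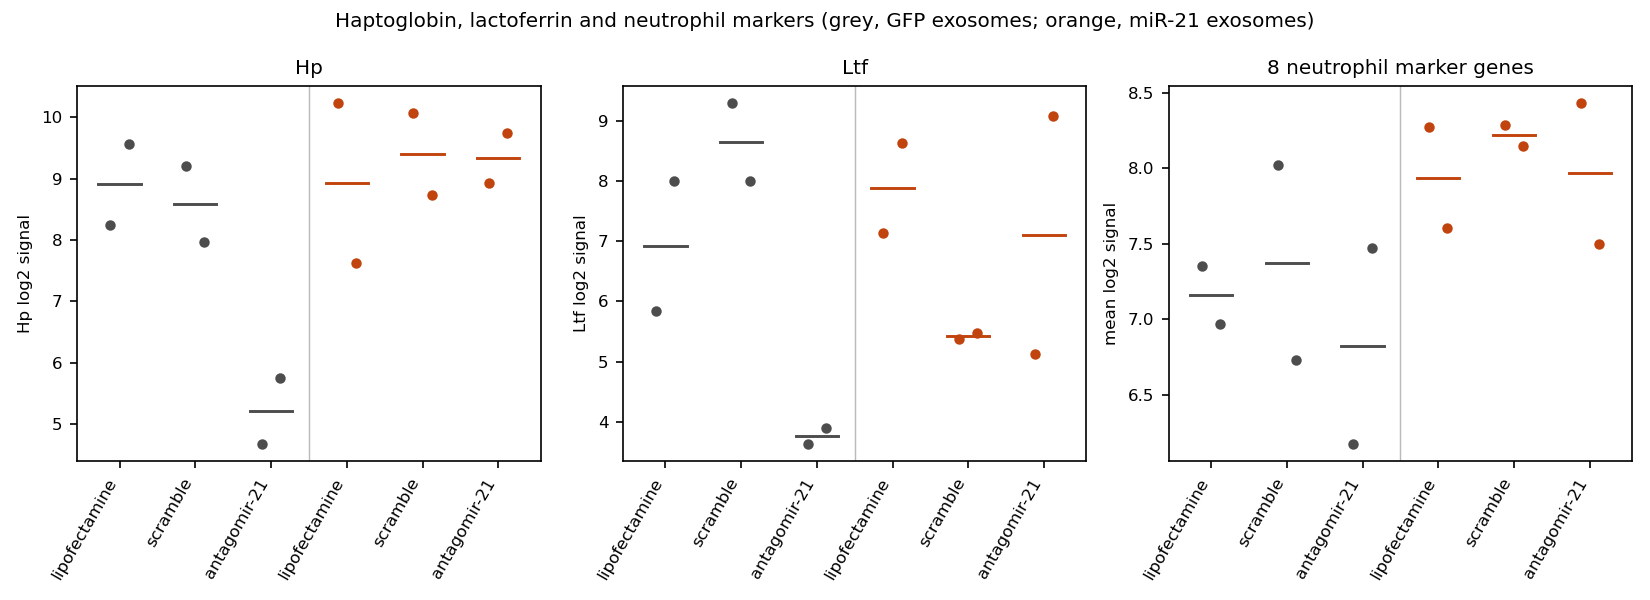
Log2 signal of *Hp* (left), of *Ltf* (middle) and the mean log2 signal of 8 neutrophil markers (right) on 12 arrays. Points are arrays, short lines group means, with GFP exosomes in grey and miR-21 exosomes in orange. *Hp* and *Ltf* are both lowest in antagomir-21 with GFP exosomes, whereas the neutrophil markers of that group, at 6.17 and 7.47, overlap the other GFP groups.

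*Cd163* encodes the macrophage receptor for haptoglobin-hemoglobin complexes. With GFP exosomes, its log2 signals were 9.67 and 10.40 after lipofectamine, 10.07 and 9.40 after scramble, and 8.81 and 8.22 after antagomir-21. With miR-21 exosomes, they were 8.66 and 9.01 after lipofectamine, 9.11 and 10.10 after scramble, and 6.78 and 9.20 after antagomir-21. Antagomir-21 arrays were below scramble arrays with GFP exosomes, and overlapped them with miR-21 exosomes. Over both exosomes, the 95% confidence interval of the antagomir-21 difference ran from −2.98 to 0.15. *Cd163* had more pairs of groups without overlap than any of the other 9 members, 8 of 15, against 32% of pairs over all genes. How many genes reach that count was not examined, and none of the *Cd163* comparisons reached an unadjusted p of 0.05.

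Heme breakdown was represented by 3 genes. *Hmox1* encodes heme oxygenase 1, the inducible enzyme that opens the heme ring. With GFP exosomes, its log2 signals were 9.76 and 9.82 after lipofectamine, 8.58 and 10.07 after scramble, and 10.98 and 9.54 after antagomir-21. With miR-21 exosomes, they were 7.16 and 9.74 after lipofectamine, 5.46 and 8.80 after scramble, and 11.22 and 8.64 after antagomir-21. The highest and the lowest of all 12 values were both from PMs with miR-21 exosomes, and there the antagomir-21 and scramble arrays overlapped.

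*Hmox1* had the largest difference of the 10 members between antagomir-21 and scramble with miR-21 exosomes, 2.80 (SE 1.41, unadjusted p = 0.0745, adjusted p = 0.966). That value rested on single arrays. It was 1.13 without scramble replicate 1 and 4.47 without scramble replicate 2, 1.51 without antagomir-21 replicate 1 and 4.09 without antagomir-21 replicate 2. Over both exosomes the difference was 1.87 (SE 1.0, unadjusted p = 0.0898, adjusted p = 0.992), again the largest of the 10 and higher with either exosome. None of the 10 members passed an unadjusted p of 0.05 there, against 5.16% of all genes. Among the arrays with miR-21 exosomes, it was 1.03 without scramble replicate 1 and 1.22 without antagomir-21 replicate 1, but 2.70 without scramble replicate 2 (unadjusted p = 0.0234, adjusted p = 0.651) and 2.51 without antagomir-21 replicate 2 (unadjusted p = 0.0431, adjusted p = 0.57).

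Between exosomes after scramble, *Hmox1* also had the largest difference of the 10, −2.19 for miR-21 compared with GFP (SE 1.41, unadjusted p = 0.15, adjusted p = 0.988), which became −0.52 without scramble replicate 1 with miR-21 exosomes and −3.86 without replicate 2. None of the 10 members passed an unadjusted p of 0.05 in that comparison, against 5.7% of all genes. In scramble-transfected PMs with miR-21 exosomes, *Hmox1* was at 7.13 ± 2.36 (SD, n = 2 arrays), and in antagomir-21–transfected PMs with GFP exosomes at 10.26 ± 1.02 (SD, n = 2).

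*Blvra* and *Blvrb* encode biliverdin reductases, which turn biliverdin into bilirubin. *Blvra* was among the steadiest of the 10. Its 6 values with GFP exosomes ran from 10.47 to 11.35 (median 11.14), and its 6 values with miR-21 exosomes from 10.32 to 11.83 (median 11.09). The group means lay within 0.46 log2 units of each other, less than the widest gap within a group, 1.51. Its interval for miR-21 compared with GFP exosomes was −1.08 to 1.23, and for antagomir-21 compared with scramble −1.29 to 1.55.

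*Blvrb* varied far more. With GFP exosomes, its log2 signals were 8.04 and 9.98 after lipofectamine, 5.95 and 8.74 after scramble, and 9.62 and 9.48 after antagomir-21. With miR-21 exosomes, they were 7.25 and 5.08 after lipofectamine, 6.76 and 9.07 after scramble, and 7.75 and 7.55 after antagomir-21. After lipofectamine and after antagomir-21 both arrays with miR-21 exosomes were below both with GFP exosomes, and after scramble the arrays overlapped.

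After lipofectamine, *Blvrb* was lower with miR-21 than with GFP exosomes by a log2 fold change of −2.85 (SE 1.28, unadjusted p = 0.0499, adjusted p = 0.999), the 1 of 10 members at the threshold, against 3.84% of all genes. Without single arrays the value ran from −1.77, without lipofectamine replicate 2 with miR-21 exosomes, to −3.93, without replicate 1, and was −1.88 without lipofectamine replicate 2 with GFP exosomes. It was no longer at the threshold in 6 of 12 runs without 1 array and under 4 of 6 other limma settings. These were quantile normalization (−2.66, unadjusted p = 0.084, adjusted p = 0.999), median centring (−3.06, unadjusted p = 0.0525, adjusted p = 1), the trended prior (unadjusted p = 0.0589, adjusted p = 0.999) and the replicate block (unadjusted p = 0.0527, adjusted p = 0.999). Over all transfections the interval of the exosome difference was −3.03 to 0.25.

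Iron uptake was represented by *Tfrc*, *Slc11a2* and *Slc11a1*. *Tfrc* encodes transferrin receptor 1, the entry for iron bound to transferrin. After lipofectamine, *Tfrc* log2 signals were 11.82 and 12.42 with GFP exosomes and 12.09 and 11.84 with miR-21 exosomes. After scramble, *Tfrc* signals were 10.26 and 12.48 with GFP exosomes and 10.64 and 11.59 with miR-21 exosomes. After antagomir-21, *Tfrc* signals were 12.80 and 12.04 with GFP exosomes and 11.77 and 10.57 with miR-21 exosomes. Only after antagomir-21 were the 2 exosomes without overlap, with both GFP arrays above both miR-21 arrays. The interval for miR-21 compared with GFP exosomes over all transfections was −1.83 to 0.72. All 3 probe sets of *Tfrc* gave the same sign there, with differences of −0.55, −0.46 and −0.60, although their signals were not related over the arrays (r from −0.05 to 0.05).

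*Slc11a2* encodes DMT1, which carries iron out of endosomes into the cytosol. After lipofectamine, *Slc11a2* log2 signals were 7.89 and 8.43 with GFP exosomes and 9.61 and 4.05 with miR-21 exosomes. After scramble, *Slc11a2* signals were 9.29 and 7.71 with GFP exosomes and 9.25 and 10.18 with miR-21 exosomes. After antagomir-21, *Slc11a2* signals were 9.63 and 9.42 with GFP exosomes and 8.74 and 8.96 with miR-21 exosomes. The value of 4.05 stood far below the next lowest array, at 7.71, and the other 5 groups lay between 7.71 and 10.18. *Slc11a2* had the largest difference of the 10 between scramble and lipofectamine over both exosomes, 1.62 (SE 1.07, unadjusted p = 0.161, adjusted p = 1), where none of the 10 members passed an unadjusted p of 0.05, against 4.14% of all genes. It was 0.22 without lipofectamine replicate 2 with miR-21 exosomes, the array of the value 4.05, and 3.01 without replicate 1. Of the other 3 probe sets of *Slc11a2*, 2 had the opposite sign, −1.18 and −1.26, and the last was at 0.08.

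*Slc11a1* encodes NRAMP1, which pumps iron out of phagosomes and marks the macrophage lineage; C57BL/6 mice carry an inactive form of the protein. After lipofectamine, *Slc11a1* log2 signals were 11.94 and 12.58 with GFP exosomes and 12.60 and 12.05 with miR-21 exosomes. After scramble, *Slc11a1* signals were 12.25 and 13.02 with GFP exosomes and 11.55 and 12.67 with miR-21 exosomes. After antagomir-21, *Slc11a1* signals were 13.44 and 13.46 with GFP exosomes and 13.48 and 11.96 with miR-21 exosomes. The 3 highest values were from antagomir-21–transfected PMs, and the fourth antagomir-21 array had the third lowest value. The intervals were −1.56 to 0.77 for miR-21 compared with GFP exosomes and −0.72 to 2.14 for antagomir-21 compared with scramble.

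Storage and export complete the set. *Fth1* encodes the ferritin heavy chain, which oxidizes iron for storage. After lipofectamine, *Fth1* log2 signals were 16.31 and 17.10 with GFP exosomes and 17.70 and 16.69 with miR-21 exosomes. After scramble, *Fth1* signals were 17.31 and 17.31 with GFP exosomes and 16.66 and 17.53 with miR-21 exosomes. After antagomir-21, *Fth1* signals were 17.73 and 17.72 with GFP exosomes and 17.97 and 16.27 with miR-21 exosomes. With GFP exosomes the 3 transfections did not overlap, whereas with miR-21 exosomes all 3 did. The intervals were −1.29 to 1.07 for miR-21 compared with GFP exosomes and −1.23 to 1.66 for antagomir-21 compared with scramble, so a difference in either direction above the upper limit of 1.66 was outside both. Its second probe set gave the same sign in both, and the opposite one between scramble and lipofectamine (0.25 and −0.31).

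*Slc40a1* encodes ferroportin, the iron exporter. After lipofectamine, *Slc40a1* log2 signals were 8.66 and 8.57 with GFP exosomes and 4.79 and 9.27 with miR-21 exosomes. After scramble, *Slc40a1* signals were 9.37 and 8.65 with GFP exosomes and 6.35 and 9.26 with miR-21 exosomes. After antagomir-21, *Slc40a1* signals were 8.68 and 8.26 with GFP exosomes and 7.01 and 8.92 with miR-21 exosomes. The 6 GFP arrays were within 8.26 to 9.37, and each miR-21 group held 1 array below and 1 array within that range. No pair of the 6 groups was thus without overlap, against 32% of pairs over all genes. The interval of the exosome difference was −3.00 to 0.80. Its second probe set gave the opposite sign in all 3 pooled comparisons, with 1.32 where the first had −1.10 between exosomes, 1.07 against −0.19 between antagomir-21 and scramble, and −1.02 against 0.58 between scramble and lipofectamine, and the 2 probe sets had an r of −0.41 over 12 arrays.

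By direction alone, 8 of the 10 members had a lower mean with miR-21 than with GFP exosomes over all transfections, with a median log2 fold change of −0.47 against −0.02 over all genes, of which 49% were higher. *Hmox1*, *Slc40a1*, *Tfrc* and *Cd163* were lower in each of the 3 transfections, as were 14.7% of all genes, and *Hp* was higher in each, as were 13.5%. After antagomir-21 alone, 9 of 10 members were lower with miR-21 exosomes (median −0.56 against −0.08 over all genes, of which 47.3% were higher). Over both exosomes, 7 of 10 members were higher after antagomir-21 than after scramble (median 0.18 against 0 over all genes, of which 49.8% were higher), and 8 of 10 were higher after scramble than after lipofectamine (median 0.08 against 0, with 49.8% of all genes higher), a count that was 6 after quantile normalization and 4 after median centring. These counts have no test, since genes are not replicates.

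**Figure D3:**
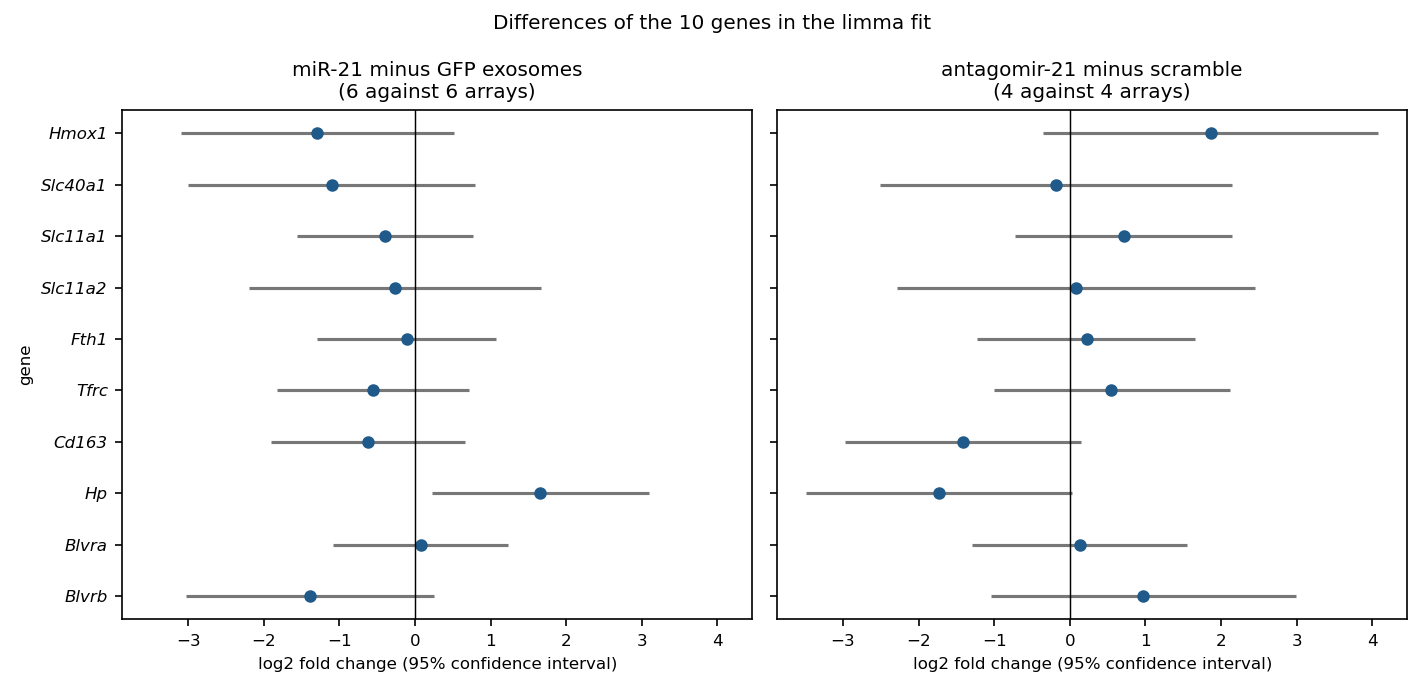
Log2 fold change (x axis) of the 10 genes for miR-21 minus GFP exosomes over 12 arrays (left) and antagomir-21 minus scramble over 8 arrays (right), from the limma fit. Points are estimates and lines their 95% confidence intervals. Only the interval of *Hp* in the exosome comparison, 0.22 to 3.09, leaves out 0, at an adjusted p of 0.866.

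The signal of 2 members followed a property of the whole array. Over 12 arrays, *Slc11a1* was related to the SD of all probe sets of the array, with Pearson's r of 0.98 and Spearman's rho of 0.96 (permutation test, p = 1e-05 for both, the smallest that 100000 permutations can give, adjusted p = 0.00066 over 66 relations). The r was 0.98 without the 2 arrays farthest from the median SD, 0.98 after group means were removed, and 0.98 to 0.99 without each array in turn. Of 18193 genes, none had a higher r with the array SD. The 3 arrays with the widest spread, at SDs of 2.46 to 2.48, were the antagomir-21 arrays with the 3 highest *Slc11a1* values.

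*Fth1* was related to the array SD as well, with r of 0.83 and rho of 0.83 (permutation test, p = 0.00097 and 0.0012, adjusted p = 0.021 and 0.026), r of 0.83 without the 2 farthest arrays and 0.90 after group means were removed. High genes shared this in part, since the median r was 0.66 among the 1820 genes of highest signal and −0.13 among the 1820 of lowest signal. *Tfrc* and *Blvra*, also among the former, had r of 0.66 and 0.45. *Hmox1* had an r of 0.71 with an adjusted p of 0.11, and the other 7 members an adjusted p of 0.18 or more. Among the latter, *Hp* had an r of −0.60, and of −0.14 after group means were removed. The part of array spread in the *Hp* differences was not tested.

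**Figure D4:**
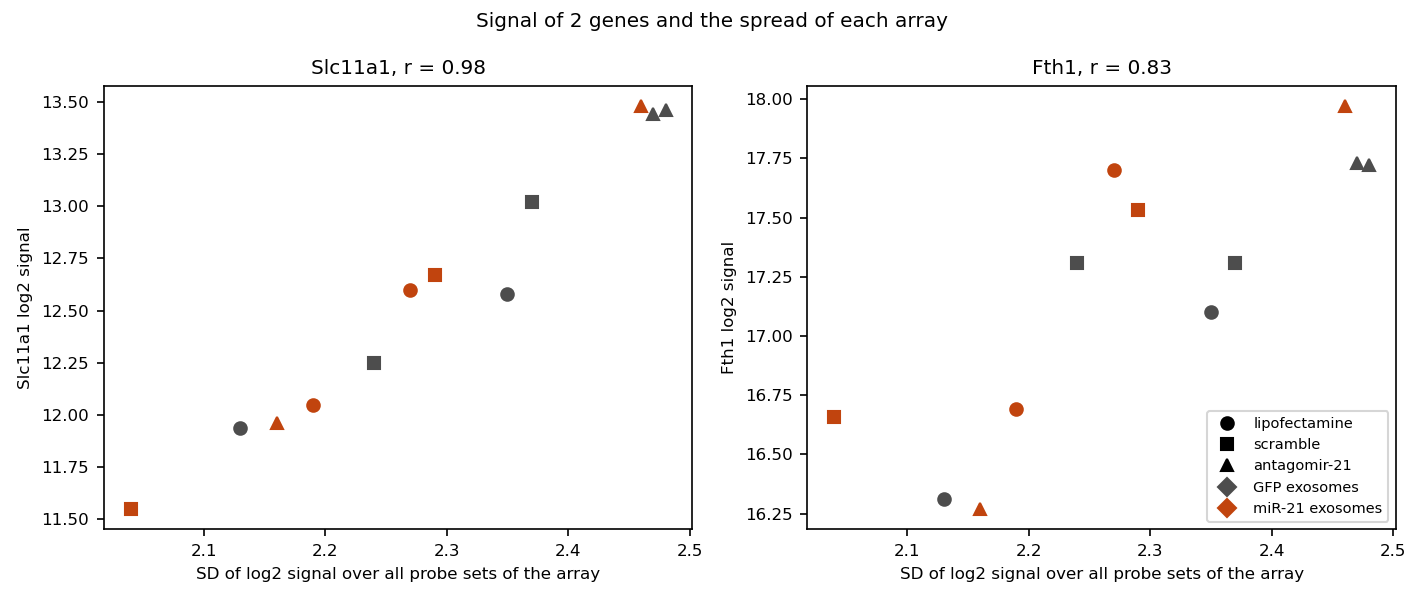
Log2 signal of *Slc11a1* (left) and *Fth1* (right) against the SD of the log2 signal over all probe sets of the same array (x axis), 12 arrays. Circles are lipofectamine, squares scramble and triangles antagomir-21, with GFP exosomes in grey and miR-21 exosomes in orange. *Slc11a1* rises from 11.55 to 13.48 along the axis in close order (r = 0.98), *Fth1* with more scatter (r = 0.83).

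*Slc11a1* and *Fth1* were also the 1 of 45 pairs of members related to each other at an adjusted p under 0.05 (r = 0.86, rho = 0.90, permutation test, p = 0.00048 and 0.00012, adjusted p = 0.016 and 0.004). The r was 0.83 without the 2 farthest arrays and 0.91 after group means were removed. Quantile normalization, which gives every array the same distribution, lowered the SD of *Slc11a1* over the arrays from 0.66 to 0.34 and that of *Fth1* from 0.58 to 0.31. It left an r with the array SD of 0.85 for *Slc11a1* (permutation test, unadjusted p = 0.00086) and of 0.34 for *Fth1* (p = 0.28), and an r between the genes of 0.56 (p = 0.061). These runs were chosen after the data were seen. Over all 45 pairs of members the r ran from −0.61 to 0.86, with a median of 0.09.

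The 250 bases before the annotated starts of this pair are shown for reference, from RefSeq on GRCm38.p6, both on the plus strand. Both genes also followed the array SD, and shared control of the pair was not tested. *Slc11a1* is at chr1:74374953-74375202. For *Fth1*, with 2 annotated starts, the window of the downstream one is given, chr19:9982396-9982645. Capitals mark TGANNNNGC, a loose form, with 4 free bases, of the core of the antioxidant response element that NRF2 and BACH1 bind. It was searched on both strands within the 250 bases only, and binding was not tested.
Slc11a1: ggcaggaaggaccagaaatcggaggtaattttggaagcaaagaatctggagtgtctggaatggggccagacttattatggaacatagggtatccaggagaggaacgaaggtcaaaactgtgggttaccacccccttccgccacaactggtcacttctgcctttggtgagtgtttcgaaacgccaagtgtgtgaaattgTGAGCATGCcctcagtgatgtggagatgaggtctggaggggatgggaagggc
Fth1: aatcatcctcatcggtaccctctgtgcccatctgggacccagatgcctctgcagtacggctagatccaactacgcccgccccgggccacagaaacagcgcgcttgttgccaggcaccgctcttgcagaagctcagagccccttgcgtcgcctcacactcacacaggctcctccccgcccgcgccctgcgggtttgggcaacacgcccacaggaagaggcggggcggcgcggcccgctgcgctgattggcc
The *Slc11a1* window holds the motif once, 52 bases before the start, and neither *Fth1* window holds it. The 6 members in the table have 9 windows, of which 4 (of *Slc11a1*, *Blvra* and *Blvrb*) hold the motif, as do 35.2% of all 32851 windows. *Hmox1*, *Slc40a1*, *Slc11a2* and *Hp* were not in the table of windows.

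Beyond the 10 members, 47 of 52 other iron and heme genes in 5 lists were measured. *Steap4*, a metalloreductase that reduces ferric iron, had the lowest adjusted p of them for antagomir-21 compared with scramble over both exosomes. After lipofectamine, *Steap4* log2 signals were 7.77 and 7.45 with GFP exosomes and 9.30 and 8.73 with miR-21 exosomes. After scramble, *Steap4* signals were 4.5 and 7.05 with GFP exosomes and 6.32 and 4.56 with miR-21 exosomes. After antagomir-21, *Steap4* signals were 8.03 and 8.78 with GFP exosomes and 8.29 and 8.66 with miR-21 exosomes. Scramble arrays were thus below both of the other transfections with either exosome. Antagomir-21 arrays lay above the lipofectamine arrays with GFP exosomes and below them with miR-21 exosomes. The difference from scramble was thus not particular to antagomir-21. *Steap4* was higher after antagomir-21 than after scramble by 2.63 with GFP exosomes (SE 1.05, unadjusted p = 0.031), by 3.04 with miR-21 exosomes (SE 1.05, unadjusted p = 0.0159) and by 2.83 over both (SE 0.74, unadjusted p = 0.0033, adjusted p = 0.676). It was lower after scramble than after lipofectamine by −2.71 (SE 0.74, unadjusted p = 0.00441, adjusted p = 1), a comparison that shares the scramble arrays. *Steap4* averaged 7.45, below the median gene signal of 7.91, so the run on genes above that median left it out. Under the other limma settings on all 12 arrays, both pooled values kept an unadjusted p under 0.05. Without single arrays they ran from 2.20 to 3.47 and from −3.34 to −2.07. The values within 1 exosome did not keep that p in every run. With GFP exosomes it was 1.36 without scramble replicate 1 (unadjusted p = 0.261, adjusted p = 1), 3.01 without antagomir-21 replicate 1 (unadjusted p = 0.0544) and 2.26 without antagomir-21 replicate 2 (unadjusted p = 0.132). With miR-21 exosomes it was 2.16 without scramble replicate 2 (unadjusted p = 0.106, adjusted p = 0.883) and 2.85 without antagomir-21 replicate 2 (unadjusted p = 0.0581, adjusted p = 0.621). The unadjusted p within either exosome was also over 0.05 with the trended prior (0.0997 and 0.0598).

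In the list of iron uptake and transport, 6 of 13 genes were higher and 7 lower after antagomir-21 than after scramble over both exosomes (median −0.13), and *Steap4* was the 1 at an unadjusted p under 0.05, against 5.16% of all genes. The list of iron storage and iron sensing holds *Aco1* and *Ireb2*, which encode the iron regulatory proteins, *Fbxl5*, which marks the latter for decay, and *Ncoa4*, the receptor that takes ferritin to the lysosome. All 7 of its genes were higher there (median 0.15, with a median of 0 and 49.8% higher over all genes), but only 3 of 7 were after quantile normalization (median −0.03). With miR-21 compared with GFP exosomes over all transfections, all 7 were lower (median −0.41, with a median of −0.02 and 49% higher over all genes), and 6 of 7 after quantile normalization. None had an unadjusted p under 0.05 in either comparison. The counts after quantile normalization were added after the data had been seen. The arrays of both comparisons overlap in part, so the directions are not independent. In the mitochondrial list, *Slc25a28*, which encodes the iron importer mitoferrin 2, was higher after antagomir-21 than after scramble over both exosomes by 2.64 (SE 0.88, unadjusted p = 0.0132, adjusted p = 0.765), as the 1 of 6 genes at the threshold, against 5.16% of all genes. It averaged 7.85, just below the median gene signal of 7.91. With GFP exosomes its signals were 8.29 and 8.39 after lipofectamine, 6.11 and 8.8 after scramble and 9.75 and 10.12 after antagomir-21. With miR-21 exosomes they were 6.35 and 9.29 after lipofectamine, 4.7 and 6.05 after scramble and 8.89 and 7.46 after antagomir-21. The lipofectamine arrays thus lay within the range of scramble with GFP exosomes. With miR-21 exosomes they lay on either side of the antagomir-21 arrays and above scramble. Without single arrays the difference ran from 1.97 to 3.31.

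*Ltf* was lower after antagomir-21 than after scramble with GFP exosomes by −4.88 (SE 1.33, unadjusted p = 0.00417, adjusted p = 0.698), and its interaction was 6.56 (SE 1.88, unadjusted p = 0.00568, adjusted p = 0.774). *Ltf* signals were 9.29 and 8.0 after scramble and 3.63 and 3.90 after antagomir-21 with GFP exosomes, and 5.37 and 5.48 after scramble and 5.12 and 9.08 after antagomir-21 with miR-21 exosomes. The groups were apart with GFP exosomes and overlapped with miR-21 exosomes.

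In heme synthesis, *Fech*, which encodes ferrochelatase, the enzyme that forms heme by inserting iron, was lower with miR-21 than with GFP exosomes after lipofectamine. Its log2 signals were 5.64 and 5.83 compared with 9.99 and 9.96, and 8.80 to 10.20 on the other 8 arrays. The log2 fold change was −4.24 (SE 0.88, unadjusted p = 0.00064, adjusted p = 0.999), and over the mean of all probe sets of the gene −0.82. In the list of heme uptake, export, breakdown and control, 4 of 12 genes were higher and 8 lower with miR-21 exosomes over all transfections (median −0.29, with 49% of all genes higher), with none at an unadjusted p under 0.05. Its best-known regulators were well read, with *Nfe2l2*, which encodes NRF2, at 12.49 ± 0.72 (SD, n = 12 arrays) and *Bach1*, the repressor of *Hmox1*, at 13.04 ± 0.50 (SD, n = 12).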

How the data were processed

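RNA of 12 PM arrays in 6 groups of 2 was analyzed, with groups and replicates taken from the sample labels. The values that the authors deposited are log2 signals of 45037 probe sets, with every array scaled by 1 factor (trimmed mean on the linear scale of 496 to 499). The methods describe RMA with quantile normalization, but the array medians (7.92 to 8.58) and SDs differ, so the deposited values are not quantile normalized, which leaves array-wide differences in them. The program behind this scaling is not given. For arrays, their number limits the precision, and signal over background is unknown. Amplification was with NuGEN kits per the labels, and with a WT Pico kit per the methods.

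A total of 34945 probe sets had 1 gene symbol, 932 had several and 9160 were not listed; the latter 2 kinds were left out. Symbols of 34741 were updated by gene ID, which gave 18193 genes, 9010 with more than 1 probe set; the probe set with the highest mean was used. Of the 10 members, 4 had more than 1 (17 in all).

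Group means were fitted with limma 3.58.1 in R 4.3.3 (lmFit, eBayes, 6 residual and 4.3 prior degrees of freedom), with Benjamini-Hochberg adjustment over all genes and calls at an adjusted p under 0.05. Unadjusted p is given beside it because the methods use that threshold without naming an adjustment. Intervals are at 95%. Relations over 12 arrays used 2-sided permutation tests (100000 permutations, 66 relations adjusted together). The procedure was tested on simulated data.

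Members and gene lists were chosen with earlier results of these data known. The rule for named genes gave every member by its level, fold changes of members at an unadjusted p under 0.05 or with the largest difference in a comparison, and list genes at that threshold. Outside this rule, chosen after the values were seen, stand the intervals of single members, the exosome differences of *Hp* within each transfection, its difference with miR-21 exosomes between oligonucleotides, the differences of probe sets and the choice of list genes among those allowed. The single neutrophil markers named were also chosen after the values were seen. The alternatives were quantile normalization, median centring, genes above the median signal, the mean of all probe sets, a trended prior, a replicate block, the Student test on the compared arrays and each array left out. Genome coordinates of probe sets are not given. Of 52 other iron and heme genes listed, 47 were measured, and the rest are not reported here.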

Additional observations from a re-analysis of the deposited data

How the results depend on the processing

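None of the 10 members passed an adjusted p of 0.05 in any of the 11 tests under any alternative. For all genes the count stayed at 0 with limma, and the Student test called 2 genes for antagomir-21 compared with scramble with miR-21 exosomes and 1 for the exosomes after scramble. With the mean of all probe sets of a gene, the level of *Fth1* was 15.47 and that of *Tfrc* 9.59, and the *Slc11a2* difference between scramble and lipofectamine reversed to −0.19; the cause was not tested beyond the probe sets given above. With each array left out in turn, *Hp* for antagomir-21 compared with scramble with GFP exosomes ran from −4.00 to −2.76, and the exosome difference of *Hp* over all transfections from 1.22 to 2.09. *Fth1* lost its relation to the array SD under quantile normalization (0.34), as did the pair with *Slc11a1* (0.56). Median centring moved the median of all genes most in scramble with miR-21 compared with antagomir-21 with GFP exosomes, from 0.03 to −0.33, and the share of higher genes among those at an unadjusted p under 0.05 there was 70% as deposited, 51.9% after quantile normalization and 54.1% after median centring. For the exosomes over all transfections it was 73.5%, 59% and 52.2%, and for antagomir-21 over both exosomes 32.6%, 51% and 43.3%. The replicate numbers did not pair the arrays, as the correlations of same-numbered deviations ran from −0.192 to 0.167 over 15 pairs of groups, 1 of them over 0.1. With the replicate block, which cannot change a difference in this balanced design, 0 members were called in every comparison; *Hp* at −3.38 had an adjusted p of 0.788.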
